A study of Mus musculus with 12 samples.

Results

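The mitochondrial ribosomal protein genes of cultured mouse myotubes were followed in RNA sequencing data from 12 libraries. The 77 genes were chosen by name: protein-coding genes whose symbol is Mrpl or Mrps followed by a digit, with a mean of 10 or more normalized counts, among 20201 genes in the table. GENCODE M21 holds 78 coding genes with such symbols, 77 of them have a row, and the 77 passed the minimum, with means of 47.8 (Mrps6) to 272 (Mrpl30). Mrpl33 was not analysed here. The nearest values inside the minimum were those of Mrps6 and Mrps28, with means of 47.8 and 47.9, so no gene of the pattern lay close to it or outside it.

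Myotubes are the fused, multinucleated cells that cultured myoblasts form, and here they came from primary myoblasts of mice whose Bmal1 gene is floxed. This gene, Arntl in the table, encodes the transcription factor that drives the circadian clock together with CLOCK. The design text describes Cre adenovirus or an empty virus for 48 hours, then 1% or 21% oxygen for 6 hours, which makes 4 conditions. The sample labels give 2 groups: 6 libraries labelled Bmal1 knockout with Hypoxia (1% O2 for 6h), and 6 libraries labelled wildtype with Normoxia (21% O2). Every group shares the floxed background, the viral infection and the culture in 2% horse serum. Genotype and oxygen go together in the labels, so their effects cannot be told apart, and the comparison below is of the 2 labels as a whole. The labels name no animal, culture or batch, so p-values measure the spread between libraries, which may be technical.

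The mitochondrial ribosome translates the few respiratory chain proteins that mitochondrial DNA encodes. Its proteins are encoded in the nucleus, made by cytosolic ribosomes and imported, and they assemble with mitochondrial ribosomal RNA into a small subunit, which reads the messenger RNA, and a large subunit, which forms the peptide bonds. Some of the proteins descend from bacterial ribosomal proteins and others are found in mitochondrial ribosomes only. Skeletal muscle depends on this machinery for its oxidative capacity. Of the 77 genes, 50 encode large subunit proteins and 27 small subunit proteins. Mrps30 and Mrps18a are counted with the large subunit, where their proteins sit. Mrps36 carries the name but is known as a subunit of the 2-oxoglutarate dehydrogenase complex. By origin, 45 have a bacterial homologue and 32 are mitochondrial only. The genes lie on 17 chromosomes, with 11 of them on chromosome 11.

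Some features of the libraries come before the results. Recovered reads totalled 6376584 to 12463339 per library, of which the 77 genes took 0.0678% to 0.111% (4523 to 12003 reads). Another 8 genes, mostly ribosomal and other non-coding RNA, took 49.2% to 65.4%. Arntl and its target genes Nr1d1, Dbp and Per3 were lower in the knockout label, with 4 of 4 called. Among 6 hypoxia-induced genes (Egln3, Slc2a1, Vegfa, Ankrd37, Pdk1 and Car9), 0 were called between the labels by limma, edgeR or DESeq2, and 0 had an unadjusted limma p under 0.05. With the set of title numbers (1 to 6 or 7 to 12) as a term in limma, 1 was called higher and 1 lower. Their mean log2 level was instead 9.69 to 9.85 in knockout libraries with title numbers 10 to 12, against 7.18 to 7.52 in knockout libraries 4 to 6. It was 9.77 to 9.88 in wildtype libraries 7 to 9, against 7.35 to 7.59 in wildtype libraries 1 to 3. The oxygen label is therefore not followed by these genes, and the title numbers 7 to 12 stand apart from 1 to 6. No condition was assigned to a set of title numbers, and no p-value was computed between sets of 1 label. Wildtype replicate 2 (title number 2) stands apart too: 29.6% of genes had no reads there, against 13.0% to 21.9% in the other 11 libraries.

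The comparison of the labels asked how transcripts of the mitochondrial ribosome differed between myotubes labelled Bmal1 knockout and wildtype. Of the 77 genes, 12 were higher in the knockout label and 2 were lower at an adjusted p under 0.05. Mrps21, a small subunit protein, showed the largest rise of the called genes, a 2.07-fold difference, followed by Mrps25 (1.70-fold), Mrpl19 (1.69-fold) and Mrpl28 (1.55-fold). Mrpl1, whose bacterial counterpart forms a mobile stalk of the large subunit, was 1.63-fold lower and Mrpl24 1.24-fold lower. The higher genes made up 15.6% of the 77, against 10.2% of all 12553 genes tested, and the lower ones 2.60%, against 9.07% of all genes tested. By sign, 55 of the 77 had a positive difference and 22 a negative one. The median log2 difference, knockout minus wildtype, was 0.16 over the 77 genes and -0.00 over all genes tested, and single genes ranged from -0.70 to 1.05. In bulk RNA, fewer cells of a type and less RNA per cell cannot be told apart.

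The values depend on the scaling. With the 8 abundant genes left out and the rest scaled to library totals, the median of all genes moved by -0.16, and 6 of the 77 were higher (4.89% of all genes) and 6 lower (17.5% of all genes). The median of the 77 was then -0.01, which lay 0.16 above that of all genes, as it did without this change. Rescaling a library moves all of its genes nearly alike, so this gap could hardly change and is no check of it. Mrpl10, Mrpl37, Mrpl39, Mrpl49, Mrpl54 and Mrps23 lost their call there, and Mrpl44, Mrpl55, Mrps2 and Mrps30 were called lower. Differences are therefore read relative to the median of all genes. Tested on recovered reads, edgeR called 12 higher and 2 lower (10.4% and 8.80% of all genes), and DESeq2 13 higher and 2 lower (11.4% and 10.8%).

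Promoters of 4 of the genes are printed for reading beside the values: Mrps21, with the largest rise; Mrps24, a riser with a YY1 motif; Mrpl37, the called gene with an E-box, the motif bound by BMAL1 and CLOCK; and Mrpl1, with the largest fall. Each runs from 250 bases before to 50 bases after the RefSeq transcription start (GRCm38.p6, 5′ to 3′ on the gene's strand). Capitals mark matches, on either strand, to GCGCANGCG (NRF1) in Mrps21, to AAGATGGC (YY1) in Mrps24 and Mrpl37, and to CACGTG (E-box) in Mrpl37. The Mrpl1 window holds no match to these motifs or to CCGGAAGT (ETS factors such as GABPA). The windows are chr3:95871465-95871764 (minus strand) for Mrps21, chr11:5707652-5707951 (minus strand) for Mrps24, chr4:107066817-107067116 (minus strand) for Mrpl37 and chr5:96209865-96210164 (plus strand) for Mrpl1.
Mrps21: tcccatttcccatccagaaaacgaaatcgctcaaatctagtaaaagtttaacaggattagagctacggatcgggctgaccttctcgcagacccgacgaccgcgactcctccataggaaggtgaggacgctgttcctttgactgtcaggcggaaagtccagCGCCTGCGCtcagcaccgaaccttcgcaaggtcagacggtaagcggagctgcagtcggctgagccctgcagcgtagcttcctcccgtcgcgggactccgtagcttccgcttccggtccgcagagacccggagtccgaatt
Mrps24: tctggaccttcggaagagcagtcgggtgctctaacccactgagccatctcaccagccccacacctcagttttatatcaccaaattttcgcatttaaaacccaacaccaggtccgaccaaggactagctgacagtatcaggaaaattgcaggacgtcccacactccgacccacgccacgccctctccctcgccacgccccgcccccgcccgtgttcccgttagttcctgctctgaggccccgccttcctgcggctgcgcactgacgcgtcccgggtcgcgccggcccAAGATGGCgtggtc
Mrpl37: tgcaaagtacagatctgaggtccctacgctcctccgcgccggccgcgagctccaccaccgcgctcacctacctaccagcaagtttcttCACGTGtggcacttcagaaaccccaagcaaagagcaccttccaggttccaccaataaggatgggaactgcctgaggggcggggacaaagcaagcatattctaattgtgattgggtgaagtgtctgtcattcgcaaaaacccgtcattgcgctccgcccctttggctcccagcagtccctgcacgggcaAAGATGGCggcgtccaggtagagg
Mrpl1: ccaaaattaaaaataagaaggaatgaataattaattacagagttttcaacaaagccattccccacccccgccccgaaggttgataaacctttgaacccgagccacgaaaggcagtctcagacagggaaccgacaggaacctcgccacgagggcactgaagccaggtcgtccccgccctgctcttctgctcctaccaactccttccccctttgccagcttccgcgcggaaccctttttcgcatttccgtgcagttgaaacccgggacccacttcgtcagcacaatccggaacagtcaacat

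Among the small subunit genes, 4 of 27 were higher and 0 lower, with a median log2 difference of 0.21. Mrps21 (ENSMUSG00000054312, chromosome 3, 95862634 to 95871519, mm10), which encodes a homologue of bacterial S21, had a lowest value of 144, a median of 150.3 and a highest of 154 normalized counts in the knockout label. In the wildtype label its lowest value was 40.3, its median 82.7 and its highest 88.9. The 6 knockout libraries were close together and lay above every wildtype library, and the lowest wildtype value was that of replicate 2. On average it had 150.0 ± 3.76 normalized counts in the knockout label and 74.6 ± 19.0 in the wildtype label (SD, n = 6 each), which is a difference of 1.05 on the log2 scale (SE 0.17, limma adjusted p = 0.000759). Without wildtype replicate 2 the log2 difference was 0.88 and the adjusted p 4.63e-05.

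Mrps25 (chromosome 6, 92169525 to 92184033) encodes a small subunit protein without a bacterial homologue. It had 78.2, 105 and 141 normalized counts (lowest, median, highest) in the knockout label, against 46.0, 60.0 and 75.9 in the wildtype label. The 2 labels did not overlap, although the spread within the knockout label was wide (log2 difference 0.77, SE 0.17, limma adjusted p = 0.00608). Mrps23, also mitochondrial only, had 209, 217 and 238 against 86.7, 160.2 and 184 (log2 difference 0.62, adjusted p = 0.0119). Mrps24, the homologue of bacterial S3, had 95.8, 127 and 144 against 63.5, 83.7 and 91.6 (log2 difference 0.60, adjusted p = 0.00468). The labels did not overlap for either gene. Exons of Mrps24 overlap those of Urgcp on the same strand, which makes its count uncertain. Urgcp itself had a log2 difference of -0.23 (adjusted p = 0.257).

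Other small subunit genes had large differences that did not pass the test. Mrps28 had 44.8, 54.6 and 75.8 normalized counts in the knockout label, against 6.19, 41.9 and 50.5 in the wildtype label (log2 difference 0.79, adjusted p = 0.209). Its wildtype minimum rests on 4 reads in replicate 2, and without that library the log2 difference was 0.35. Mrps6 and Mrps7, homologues of bacterial S6 and S7, had log2 differences of 0.52 (adjusted p = 0.185) and 0.47 (adjusted p = 0.105). Exons of Mrps6 overlap those of Slc5a3 on the same strand, and Slc5a3 was higher in the knockout label by 0.84 on the log2 scale. Mrps7 was called without wildtype replicate 4 (log2 difference 0.58, adjusted p = 0.0438) and within title numbers 1 to 6. Its limma adjusted p ranged from 0.0271 in the latter to 0.871 within 7 to 12, over 28 alternatives. Mrps2, the homologue of bacterial S2, lay at the other end with a log2 difference of -0.41 (adjusted p = 0.0989). With title set as a term, Mrps2 was called lower (adjusted p = 0.00371, with a range of 0.00371 to 0.293 over 28 alternatives). Its knockout values lay below its wildtype values within both title sets, and the labels overlapped over the 12 libraries. Mrps12, of the decoding centre, had 78.6 ± 12.1 normalized counts in the knockout label against 73.5 ± 25.8 in the wildtype label (SD, n = 6 each), a difference within the spread of the libraries.

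Among the large subunit genes, 8 of 50 were higher and 2 lower, with a median log2 difference of 0.14. Mrpl38 (ENSMUSG00000020775, chromosome 11, 116131817 to 116138868) is a mitochondrial-only protein of the large subunit. It had 199, 234 and 243 normalized counts in the knockout label, against 135, 146 and 169 in the wildtype label. The labels were well apart, and 5 of the 6 knockout values lay between 228 and 243. Its log2 difference of 0.63 had the smallest adjusted p of the 77 genes (SE 0.08, limma adjusted p = 0.000165).

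Mrpl28, the homologue of bacterial L28 (chromosome 17, 26123500 to 26126613), had 168, 207 and 239 normalized counts in the knockout label, against 92.9, 141 and 156 in the wildtype label (log2 difference 0.63, adjusted p = 0.00459). Mrpl19, the homologue of bacterial L19, had 92.1, 119.5 and 157 against 53.7, 71.0 and 86.0 (log2 difference 0.76, adjusted p = 0.00495). The labels did not overlap for either gene. Mrpl37, a mitochondrial-only protein, had 148, 193 and 215 against 125, 133 and 158, with overlap between the labels (log2 difference 0.46, adjusted p = 0.00798). The 4 smallest rises lay close together. They were those of Mrpl10, which anchors the factor-recruiting stalk of the large subunit (0.33, adjusted p = 0.0356), Mrpl49 (0.33, 0.0349), Mrpl39 (0.32, 0.0249) and Mrpl54 (0.31, 0.0246), given as log2 difference and adjusted p. These calls were lost without single libraries: that of Mrpl10 without any of 7, Mrpl49 of 6, Mrpl39 of 5 and Mrpl54 of 3, with adjusted p up to 0.0800, 0.0746, 0.0581 and 0.0533. The libraries were knockout replicates 1, 2 and 3 and wildtype replicates 1, 4, 5 and 6 for Mrpl10. They were knockout replicates 1, 2 and 4 and wildtype replicates 1, 3 and 5 for Mrpl49, knockout replicates 1, 4 and 5 and wildtype replicates 4 and 5 for Mrpl39, and knockout replicates 2 and 3 and wildtype replicate 5 for Mrpl54.

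Mrpl1 (ENSMUSG00000029486, chromosome 5, 96209493 to 96266727) fell to a lowest value of 44.8, a median of 56.7 and a highest of 69.7 normalized counts in the knockout label, against 82.8, 95.6 and 102 in the wildtype label. No knockout value reached the lowest wildtype value. On average it had 58.1 ± 9.65 in the knockout label and 94.3 ± 6.91 in the wildtype label (SD, n = 6 each), with a log2 difference of -0.70 (SE 0.12, limma adjusted p = 0.00136). Mrpl24, the homologue of bacterial L24, had 134, 139 and 148 in the knockout label, against 146, 171 and 201 in the wildtype label. The labels overlapped slightly for Mrpl24 (log2 difference -0.32, adjusted p = 0.027). Mrpl24 lost its call without knockout replicate 1, 5 or 6, without wildtype replicate 3 or 4, and within either set of title numbers described below. Its exons overlap those of Rrnad1 on the opposite strand, which was also lower (-0.63, adjusted p = 0.0326). The kit keeps the strand; whether counting used it, the sources used here do not give. The same applies to Mrps25, Mrpl19 and Mrpl49, whose exons overlap those of Nr2c2, Gcfc2 and Syvn1 on the opposite strand.

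**Figure D1:**
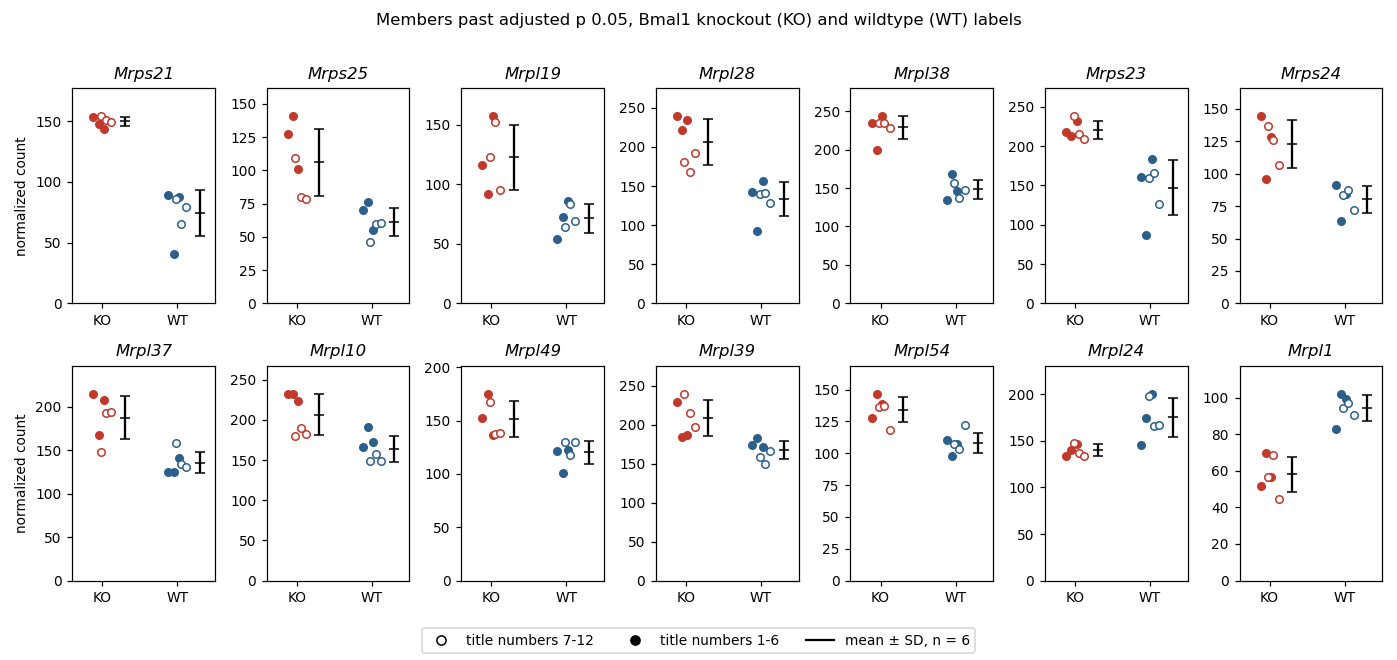
Normalized counts of the 14 called genes in every library (y axis, starting at 0), with the Bmal1 knockout label left of the wildtype label. Filled points are title numbers 1-6, open points 7-12, and bars give mean ± SD over 6 libraries. Mrps21 and Mrpl38 show knockout values well above wildtype ones, and Mrpl1 the opposite.

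The 10 genes picked for a role of their own, Mrps12 among them, did not pass the test over the 12 libraries. Mrpl12, the stalk protein that recruits translation factors, had 189 ± 34.6 normalized counts in the knockout label against 167 ± 15.0 in the wildtype label (SD, n = 6 each; log2 difference 0.16, adjusted p = 0.385). Mrpl11, of the same factor-binding region, had a log2 difference of 0.25, and Mrpl3, near the peptide-forming centre, of 0.05. Mrpl58, which as a release factor frees stalled ribosomes, had 83.5 ± 12.2 against 68.9 ± 3.10 (log2 difference 0.26, adjusted p = 0.126). Mrpl41, also studied in cell death, had a log2 difference of 0.37 (adjusted p = 0.27). With library weights, which give wildtype replicate 2 the least say, the log2 difference of Mrpl41 was 0.61 and it was called (adjusted p = 0.0379, with a range of 0.0379 to 0.576 over 28 alternatives). The 3 genes named after bacterial S18 had differences of 0.09 (Mrps18a), -0.15 (Mrps18b) and 0.07 (Mrps18c). In the counts by origin, Mrps18c is among those with a bacterial homologue and the other two are mitochondrial only. Mrps30 had one of -0.25. At the low end lay also Mrpl44, which has a fold like that of RNase III (-0.37, adjusted p = 0.132), and Mrpl57 (-0.33, adjusted p = 0.295).

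By origin, 7 of the 32 mitochondrial-only genes were higher and 0 lower (median 0.23), against 5 higher and 2 lower of the 45 with a bacterial homologue (median 0.15). With the abundant genes left out, 2 mitochondrial-only genes were higher and 2 lower (median 0.07). Of those with a bacterial homologue, 4 were then higher and 4 lower (median -0.01), against 4.89% and 17.5% of all genes. The difference between these groups was not tested. Counted by overlap alone, 10 of the 77 had every knockout value above every wildtype value, against 7.07% of all genes tested. The 10 were the called Mrps21, Mrps25, Mrpl19, Mrpl28, Mrpl38, Mrps23, Mrps24, Mrpl49 and Mrpl39, and Mrpl32, which was not called. Mrpl1 alone had every knockout value below every wildtype value, against 5.38% of all genes tested. In the heatmap of the 77 genes, which is ordered by difference, Mrpl1 lies at the bottom. Most of the 10 lie near the top, next to genes whose labels overlap, such as Mrps28, Mrps6 and Mrps7. Mrpl49, Mrpl39 and Mrpl32 lie further down.

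**Figure D2:**
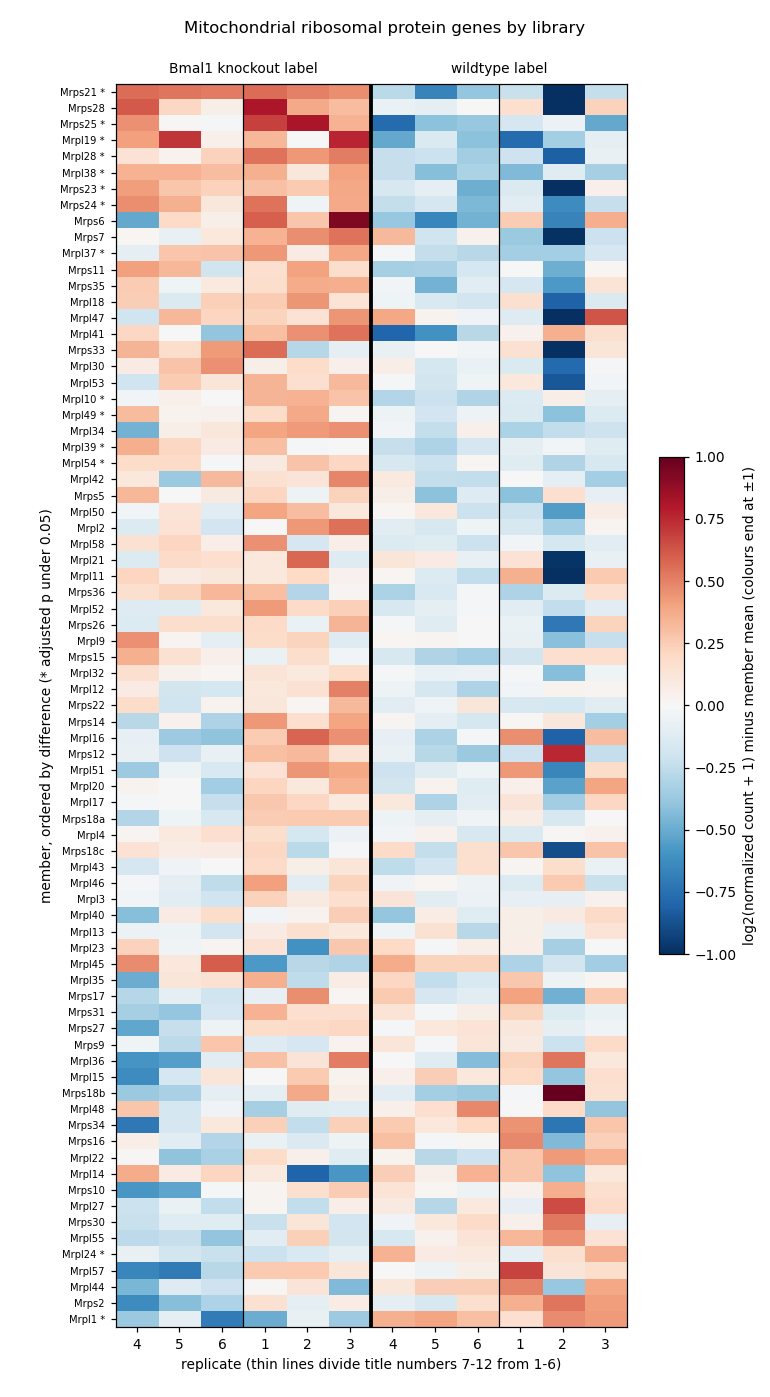
Log2(normalized count + 1) of each of the 77 genes minus its own mean over 12 libraries (colour), with genes ordered from the largest to the smallest knockout minus wildtype difference. Columns are libraries by replicate number, knockout label left, and thin lines divide title numbers 7-12 from 1-6. The column of wildtype replicate 2 has the deepest colours, both blue and red.

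Wildtype replicate 2 was the lowest wildtype library for 41 of the 77 genes and the highest for 21. The median coefficient of variation was 15.4% in the knockout label and 16.2% in the wildtype label, and 10.4% in the wildtype label without that library. Without it, the 14 called genes remained called and Mrpl44 was called lower as well, with a median log2 difference of 0.11 (12 higher and 3 lower, against 11.8% and 9.99% of all genes). With the shallowest library of each label left out (knockout replicate 4 and wildtype replicate 2), 13 of the 14 remained called, and Mrpl49 did not (all genes: 11.4% higher and 9.74% lower). With library weights, 17 of the 77 were higher and 3 lower, against 14.4% and 12.5% of all genes.

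Levels between genes were compared per kilobase of annotated transcript. Mrpl30, the homologue of bacterial L30, had the highest mean, 272 normalized counts, and also the highest level per kilobase (422). The lowest levels per kilobase were those of Mrpl1 (22.2) and Mrpl16 (24.9). The transcripts are short, with a median of 849.5 bases over the 77 genes against 1425 over all genes tested. Of the 77 genes, 58 were at most 1200 bases long. Among the 5442 tested genes of at most 1200 bases, 14.5% were higher in the knockout label and 6.45% lower, with a median log2 difference of 0.07. With each library's trend with length and GC content removed, 11 of the 77 were higher (9.81% of all genes) and 2 lower (7.95%), with a median of 0.12.

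The same values were then set out by title number within each label. In the knockout label, 26 genes had every value of title numbers 10 to 12 below every value of 4 to 6, and 1 gene, Mrpl45, had them above, against 19.9% of all genes lower and 19.9% higher. In the wildtype label, 10 genes had every value of title numbers 7 to 9 below every value of 1 to 3 (16.3% of all genes) and 3 had them above (17.6%). The median log2 difference, 7 to 12 minus 1 to 6, was -0.16 in the knockout label and 0.01 in the wildtype label, against -0.02 and 0.01 over all genes. By mean, 57 of the 77 were lower in title numbers 10 to 12 than in 4 to 6, and 36 were lower in 7 to 9 than in 1 to 3. With 3 libraries a block and no condition named for the blocks, these are descriptions.

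The mean log2 level over the 77 genes was 6.68, 6.70 and 6.70 in knockout libraries 10 to 12, and 6.90, 6.83 and 6.88 in knockout libraries 4 to 6. It was 6.67, 6.58 and 6.62 in wildtype libraries 7 to 9, and 6.72, 6.42 and 6.74 in wildtype libraries 1 to 3. In the deposited scaling, the knockout libraries 4 to 6 were the highest of the 12, and wildtype replicate 2 the lowest. This order depends on the scaling. As a share of all reads, wildtype library 7 (0.108%) lay above knockout library 6 (0.0892%), and knockout library 10 (0.0678%) was the lowest. Levels with the abundant genes left out were not computed by library. The plot of list levels sets the mean log2 levels beside those of the hypoxia-induced genes.

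**Figure D3:**
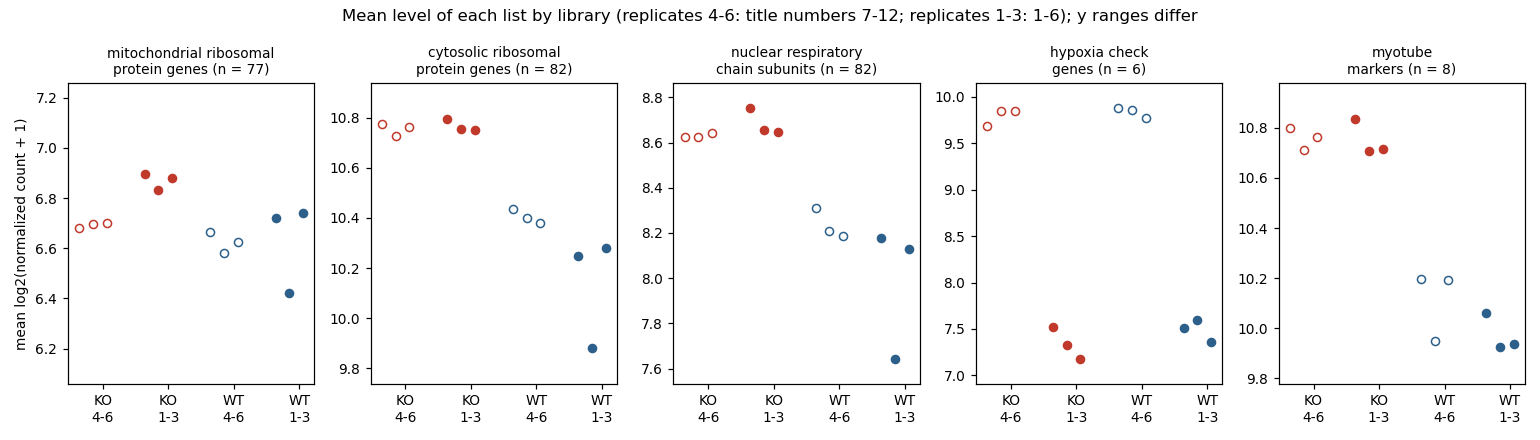
Mean log2(normalized count + 1) over the genes of 5 lists in each library (y axes, ranges differ), with the Bmal1 knockout label in red, left of the wildtype label in blue. Open points are title numbers 7-12 and filled points 1-6. The hypoxia-induced genes separate by title number, whereas the cytosolic ribosomal, respiratory chain and myotube lists separate by label. The mitochondrial ribosomal genes overlap between the labels.

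Single genes show the range of this pattern. Mrpl45, which helps to hold the ribosome at the inner membrane, had 252, 195 and 276 normalized counts in knockout libraries 10 to 12, against 121, 149 and 147 in 4 to 6. In the wildtype label it had 235, 212 and 212 in libraries 7 to 9, against 146, 159.5 and 142 in 1 to 3. Mrpl45 was thus higher in the later title numbers in both labels, without overlap, and its difference between the labels was 0.01. Mrpl14 and Mrps33, the next in that direction, had averaged differences of 0.43 and 0.28.

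In the other direction, Mrpl41 had averaged differences of -0.62, Mrpl36 of -0.60 and Mrps6 of -0.58. Mrpl36 encodes a small zinc-binding protein of the large subunit, and its exons overlap those of Ndufs6 on the opposite strand. Mrpl41 had 74.1, 64.2 and 48.6 normalized counts in knockout libraries 10 to 12, against 79.1, 88.3 and 94.1 in 4 to 6. It had 36.5, 41.7 and 52.8 in wildtype libraries 7 to 9, against 66.0, 82.1 and 71.9 in 1 to 3. The later title numbers were lower in both labels, without overlap.

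The difference between the labels was then taken within each set of title numbers. Title numbers 1 to 6 include wildtype replicate 2, the lowest wildtype library for 41 of the 77 genes. The values within that set were not recomputed without it. Within title numbers 1 to 6, 29 of the 77 had every knockout value above every wildtype value (18.0% of all genes) and 3 below (16.5%), with a median log2 difference of 0.24. Within 7 to 12, 18 were above (21.0% of all genes) and 9 below (19.2%), with a median of 0.03. The difference was positive for 58 and 45 of the 77. It had the same sign in both sets for 54 genes, 40 positive and 14 negative, which is 70.1% of the 77, against 70.9% of all genes tested. Fitted within 1 set at a time, limma called 6 higher and 0 lower in title numbers 1 to 6, against 5.65% and 3.55% of all genes, and 9 higher and 1 lower in 7 to 12, against 12.4% and 10.1%. With title set as a term over the 12 libraries, 15 of the 77 were higher and 3 lower, against 15.9% and 14.2% of all genes. The 14 called genes remained called there, and Mrpl30, Mrps11 and Mrps35 were called higher and Mrps2 lower as well.

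Mrps21 had much the same difference in both sets, with log2 differences of 1.11 and 0.98 in title numbers 1 to 6 and 7 to 12, as did Mrpl38 (0.59 and 0.66) and Mrpl1 (-0.67 and -0.74). Mrps7 did not, with 0.98 and -0.04. It had 201, 218 and 231 normalized counts in knockout libraries 4 to 6, against 121, 79.0 and 135 in wildtype libraries 1 to 3. In knockout libraries 10 to 12 it had 159.9, 149.8 and 169.7, against 197, 137 and 163 in wildtype libraries 7 to 9. The labels were apart in the first set and overlapped in the second.

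The interaction of label with title set, a test chosen after seeing the data, was called for 0 of the 77 genes at an adjusted p under 0.05, against 0.00797% of all genes tested (1 gene). At an unadjusted p under 0.05 it reached 7 of the 77 (9.09%), against 8.52% of all genes. Mrps7 had the smallest p of the 77 (log2 interaction -1.02, SE 0.26, limma adjusted p = 0.468). The interaction was negative for 57 of the 77, with a median of -0.15, against 6496 of 12553 and a median of -0.01 over all genes. It was not refitted without wildtype replicate 2, which lies in title numbers 1 to 6. The plot of the 2 sets shows the genes against each other.

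**Figure D4:**
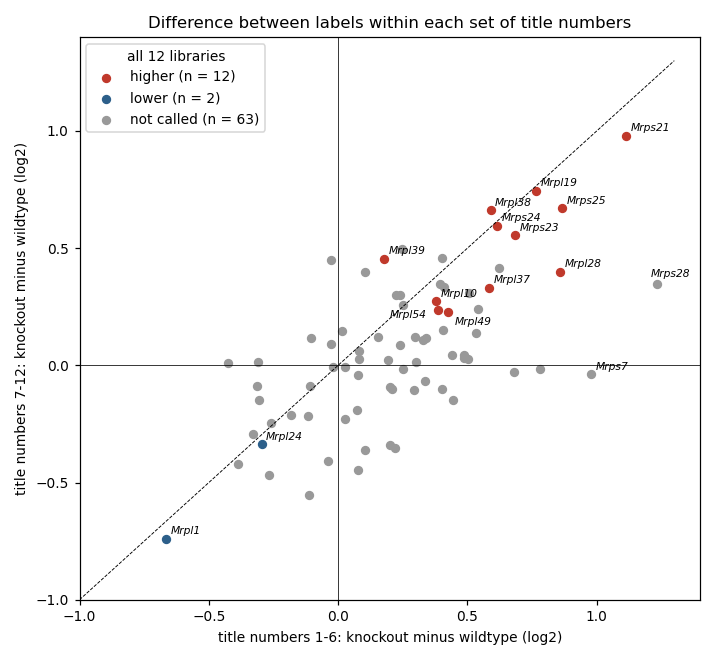
Log2 difference, Bmal1 knockout minus wildtype label, of each of the 77 genes within title numbers 1-6 (x axis) and within 7-12 (y axis). Red and blue points are genes called higher and lower over 12 libraries, grey points were not called, and the dashed line marks equal differences. Most called genes lie near the line, while Mrps7 and Mrps28 lie to its right. The Mrps28 difference within 1-6 includes the wildtype replicate 2 value that rests on 4 reads.

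Genes that work with the mitochondrial ribosome were counted by list, to be read against the 10.2% of all genes called higher and 9.07% called lower. Of 5 ribosomal proteins with other symbols, 2 were higher and 0 lower: Ptcd3, a small subunit protein that binds RNA, with 312 ± 24.2 normalized counts in the knockout label against 201 ± 31.3 in the wildtype label (SD, n = 6 each; log2 difference 0.64, adjusted p = 0.0011), and Aurkaip1 (0.38, adjusted p = 0.0363). Of 15 translation factors tested, 2 were higher and 0 lower, with a median of -0.00. They were the elongation factors Tufm (440.1 ± 24.6 against 307 ± 27.4, log2 difference 0.52, adjusted p = 0.000302) and Gfm1 (0.38, adjusted p = 0.0227). Of 17 mitochondrial aminoacyl-tRNA synthetases, 0 were higher and 1 lower, Rars2 (-0.56, adjusted p = 0.0429). Rars2 lost its call without wildtype replicate 1, 2, 3 or 6 or knockout replicate 1, 3, 4 or 5. Gfm1 lost it without knockout replicate 1, 2 or 3 or wildtype replicate 6, and Aurkaip1 without knockout replicate 1, 2, 3 or 6 or wildtype replicate 1, 4 or 6. With the abundant genes left out, 1 translation factor was higher and 3 were lower, Mtif2, Mtrf1 and Rmnd1 (median -0.16), and 2 synthetases were lower. Of all genes, 4.89% were higher and 17.5% lower there, with a median of -0.17.

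Genes of ribosome assembly and RNA modification included more falls than rises. Of 25 tested, 1 was higher and 4 were lower, with a median of -0.19. Nsun4, which methylates ribosomal RNA and joins the subunits, was higher (95.6 ± 16.1 against 53.2 ± 16.6 normalized counts, log2 difference 0.90, adjusted p = 0.0174). The lower genes were the ribosomal RNA methyltransferases Mettl15 (18.2 ± 7.16 against 37.8 ± 4.01, -1.08, adjusted p = 0.00372) and Tfb1m (-0.92, adjusted p = 0.00894), the helicase Ddx28 (-0.71, adjusted p = 0.021) and Ngrn (-0.48, adjusted p = 0.0268). The list also holds Nop9 and Dhx37, which act on cytosolic ribosomes and were not called. Of 5 mitochondrial transcription genes tested, 0 were higher and 2 lower: Tfam, which packs and transcribes mitochondrial DNA (100.4 ± 23.6 against 168 ± 45.1, -0.73, adjusted p = 0.016), and the elongation factor Tefm (-0.84, adjusted p = 0.0417). Without wildtype replicate 2, 2 assembly genes were higher and 4 lower (11.8% and 9.99% of all genes). Ngrn lost its call without wildtype replicate 1, 3, 4 or 5 or knockout replicate 6, and Tefm without knockout replicate 1, 3, 4, 5 or 6 or wildtype replicate 1, 2, 3 or 4. With the abundant genes left out, 1 assembly gene was higher and 7 were lower (median -0.36), against 4.89% and 17.5% of all genes (median -0.17). With title set as a term 2 were higher and 7 lower, against 15.9% and 14.2% of all genes. Among the 13 assembly genes with a mean of 50 or more, 2 were higher and 2 lower (median -0.05). Quantile normalization gave 2 higher and 3 lower of the 25 (median -0.11). Shares over all genes were not computed for that filter or that scaling.

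Regulators of nuclear genes for mitochondrial proteins were lower where they were called: 0 of 11 were higher and 3 lower. Ppargc1a, the coactivator of mitochondrial biogenesis, had 12.4 ± 7.81 normalized counts in the knockout label against 60.3 ± 32.4 in the wildtype label (SD, n = 6 each; log2 difference -2.27, adjusted p = 0.00145). Esrrg, a nuclear receptor that works with it, had a difference of -2.00 (adjusted p = 0.000302), and its relative Ppargc1b one of -1.07 (adjusted p = 0.00711). The 3 called genes are at low levels, with means under 50 normalized counts. Of the 8 regulators with a mean of 50 or more, 0 were called. Nrf1, Gabpa and Yy1, whose motifs are searched below, had differences of -0.05, -0.04 and 0.04 and were not called.

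Other large complexes were counted in the same way. Of 81 cytosolic ribosomal protein genes tested, 76 were higher and 0 lower (median 0.50), and of 81 nuclear respiratory chain genes 60 were higher and 0 lower (median 0.55). Of 13 coding genes of mitochondrial DNA, 10 were higher and 0 lower (median 1.05). With the abundant genes left out, the higher genes numbered 61 of the cytosolic ribosomal, 41 of the respiratory chain and 9 of the mitochondrial DNA list, and with quantile normalization 41, 54 and 8. Of all genes, 4.89% were higher with the abundant genes left out, and the share called with quantile normalization was not computed. The difference between these lists and the 77 genes was not tested, and cytosolic ribosomal and respiratory chain genes are measured at higher levels, with more reads behind each value. The cumulative plot shows 4 of the lists beside all genes.

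**Figure D5:**
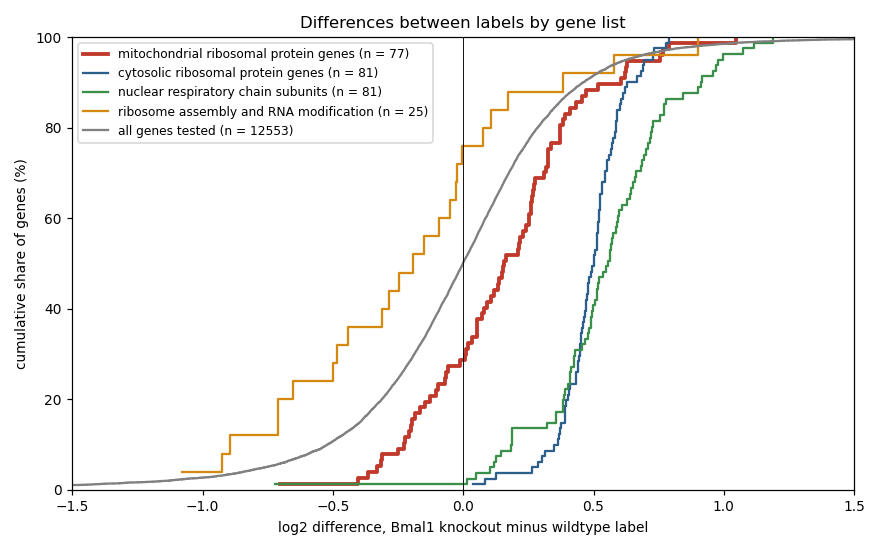
Cumulative share of genes (y axis, %) against log2 difference, Bmal1 knockout minus wildtype label (x axis, values beyond ±1.5 not shown), for 4 lists and for the 12553 genes tested. The curve of the 77 mitochondrial ribosomal protein genes lies between that of all genes and those of cytosolic ribosomal and respiratory chain genes, and the assembly list lies left of all genes.

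Markers of cell types moved with the labels too. Of 8 myotube markers, 5 were higher (Mymk, Ckm, Tnnt3, Acta1 and Des) and 2 lower (Myog and Actn2), and their summed level was 25176 to 27638 normalized counts in the knockout label against 12731 to 16529 in the wildtype label. Of 4 myoblast markers, Mki67 was higher and Myf5 and Myod1 were lower. The 4 summed to 1016 to 1119 against 777 to 1110, a sum in which the most abundant marker weighs most. Their mean log2 level was lower in the knockout label, without overlap (5.47 to 6.23 against 6.66 to 6.86). Of 4 endothelial markers, Cdh5 and Pecam1 were higher, and the 4 summed to 1130 to 1403 against 827 to 962. Of 5 fibroblast markers, Dcn was lower, while the 5 summed to 40963 to 67979 against 46717 to 57320, with overlap. Of 5 macrophage markers, 2 were tested and 0 called, and the 5 summed to 50.7 to 87.7 against 35.4 to 71.2. The 3 Schwann cell markers summed to at most 29.3 in either label, and Adipoq was at 0 in the 6 knockout libraries and at most 0.93 in the wildtype ones. Myog lost its call without wildtype replicate 1, 2 or 3 or knockout replicate 3, 4, 5 or 6, and Pecam1 without knockout replicate 4 or 6 or wildtype replicate 1 or 3. The part of these markers in the results on the 77 genes was not tested.

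The promoters of the 77 genes were searched for motifs in RefSeq windows of the same 300 bases, of which 68 matched by symbol. GCGCANGCG, the NRF1 motif printed above for Mrps21, was in 16 of 68 (23.5%), against 15.7% of 9378 tested coding genes and 7.03% of 27025 promoters. CCGGAAGT, for ETS factors, was in 11 (16.2%, against 9.34% and 4.31%), and AAGATGGC, for YY1, in 12 (17.6%, against 5.41% and 3.19%). Any of these 3 was in 36 of 68 (52.9%), against 27.3% of tested coding genes. CACGTG, the E-box, was in 5, those of Mrpl2, Mrpl20, Mrpl36, Mrpl37 and Mrps18c (7.35%, against 11.9% and 8.09%). ACGTG, the core of the hypoxia response element, which every E-box of this form contains, was in 16 (23.5%, against 29.8% and 21.8%). Both strands were searched, and a match describes letters in the window, not binding.

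Of the 14 called genes, 11 had a window. The NRF1 motif was in 3 of them, the risers Mrps21, Mrpl10 and Mrpl39, and the YY1 motif in 3, the risers Mrps24, Mrpl37 and Mrpl49. The ETS motif was in 0 of the 11. The median log2 difference was 0.14 over the 16 genes with the NRF1 motif and 0.15 over the 52 without, and 0.24 over the 12 with the YY1 motif and 0.15 over the 56 without. For the ETS motif it was 0.07 with and 0.21 without. For the E-box it was 0.12 and 0.16, and for the hypoxia core 0.09 and 0.19. These differences by motif were not tested. Of the 77 genes, 18 (23.4%) had a coding gene on the opposite strand that starts within 1000 bases upstream, against 10.2% of 11923 tested coding genes. Of 17 such partners that were tested, 1 was higher (Fau, beside Mrpl49) and 2 were lower (Zfp189, beside Mrpl50, and Ppp1r10, beside Mrps18b), with a median of -0.02. Fau encodes a cytosolic ribosomal protein, and its start lies 59 bases from that of Mrpl49 on chromosome 19.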

How the data were processed

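Total RNA of mouse myotubes was sequenced in 12 libraries, made with a strand-keeping kit per the labels' protocols. The deposited values are a signal, normalized counts per gene. Per the submitters' processing notes, Trimmomatic 0.33, STAR 2.5.2, RSEM 1.3.3, DESeq2 and mm10 were used (annotation: not given in the sources used here). Since RSEM divides ambiguous reads by estimate, genes with pseudogene copies (5 processed pseudogenes carry such names) are uncertain. Whole reads were recovered from the smallest step of each column, for 100% of values within 1e-06. A floor of 3 reads equals 2.12 to 5.85 normalized counts; floors cover counting error only. The fewest reads behind a value of the 77 genes were 4, and 22 of 924 values rest on under 30 reads.

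Identifiers were named from GENCODE M21 (19970 of 20201, 98.9%). Groups came from the labels; replicate numbers follow accession order. Labels were compared with limma 3.58.1 (trended prior, two-sided) on log2(normalized count + 1), which understates changes of low genes. P-values were adjusted by Benjamini-Hochberg over the 12553 genes whose mean was at least 10. It was written for normalized values and kept after reads were recovered; on those reads edgeR 4.0.16 and DESeq2 1.42.0 were alternatives and called 14 and 15 of the 77 genes. Other alternatives were pseudocounts 0.5 and 10, filters (none, and a mean of 50), scaling by upper quartile, by quantiles and by median of ratios, 8 abundant genes left out, a length and GC trend removed, library weights, title set as a term, each title set alone, and each library left out. Fits were tested on simulated data. Transcript lengths are medians over annotated transcripts. R 4.3.3 and Python 3.11.15 were used.

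The members and lists were chosen with earlier results of these data known. Named with values are the 10 largest and 5 smallest differences, the 3 highest and 3 lowest means, the 3 highest and 3 lowest in title numbers 7 to 12 against 1 to 6, 10 genes with a role of their own, and genes that passed the test (in the other lists, up to 3 each way, with the whole call named where there were 4). The overlap with other genes' exons was looked up after the values had been seen. Protein sequences were not analysed here.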

Additional observations from a re-analysis of the deposited data

Results flagged for a closer look

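In 74 groups of 6 libraries (36 named genes and the mean level over the 77 genes, in each label), the highest or lowest library stood apart from the others by Dixon's criterion in 8. Chance gives about 1 such group in 20 for groups picked without regard to their values. Many of the 36 genes were picked for large differences, and the groups share 12 libraries, so that rate need not hold here. Wildtype replicate 2, the library with the most genes at 0, was the one that stood apart in 5 of the 8, at the low end for Mrps28 (6.195 normalized counts), Mrpl30 (154.9) and Mrps33 (49.56), and at the high end for Mrps18b (260.2) and Mrps12 (125.4). The library weight fitted to it was 0.19, the lowest of the 12. Wildtype replicate 1 stood apart at the high end for Mrpl57 (104.8). Knockout replicate 2 stood apart at the low end for Mrpl38 (199.1) and at the high end for Mrps30 (139.3). Mrpl38 was called higher in the knockout label, so a low knockout value works against its call. Leaving out knockout replicate 2 is therefore no check of that call. With each library left out in turn, the limma adjusted p of Mrpl38 stayed under 0.05.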

How the results depend on the processing

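No paired analysis was possible because the labels give no replicate numbers that pair libraries across groups. Of the recomputed differences of 36 named genes, 902 kept direction and side of the threshold, 56 lost a call, 13 gained one and 35 changed sign. Mrpl28, Mrpl38 and Mrps25 kept their call in every setting tried, and the other 11 called genes lost it in at least 1. Mrpl10 and Mrpl49 lost it in 13 settings each, with adjusted p up to 0.374 and 0.301 there.

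With the abundant genes left out, 6 of the 77 were higher and 6 lower (4.89% and 17.5% of all genes), with a median of -0.00645. Within title numbers 1 to 6, 6 genes were called, 6 higher and 0 lower, and within 7 to 12, 1 was lower and the median was 0.0314. These fits hold 3 libraries a label. With each library left out, the calls ranged from 10 to 15, the higher ones from 8 to 13, the lower ones from 1 to 3 and the median from 0.108 to 0.214. Among these fits, the share of all genes was computed only without wildtype replicate 2 (11.8% higher and 9.99% lower). The range can therefore not be set against that of all genes. The lower calls numbered 1, Mrpl1, without knockout replicate 1, 5 or 6 or wildtype replicate 3 or 4, where Mrpl24 lost its call. The cause was not tested.

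Log2 differences that changed sign belonged to genes that were not called over the 12 libraries. For Mrpl45 they were -0.0244 with upper-quartile scaling, -0.158 with the abundant genes left out, -0.198 with library weights, -0.104 within title numbers 1 to 6, -0.122 without the shallowest library of each label, and -0.112 to 0.124 with 1 library left out. With the abundant genes left out they were -0.0146 for Mrpl16, -0.00153 for Mrpl12, -0.0707 for Mrps18a, -0.0916 for Mrps18c, -0.0267 for Mrps12 and -0.113 for Mrpl3. With the length and GC trend removed they were -0.0406 for Mrps18a and -0.0643 for Mrps12. With library weights they were 0.125 for Mrpl36, 0.110 for Mrps18b and -0.0373 for Mrps18c. Within title numbers 1 to 6, Mrpl36 had 0.0249. Within 7 to 12 they were -0.0384 for Mrps7, -0.147 for Mrpl16, 0.0108 for Mrpl14, -0.106 for Mrps18a, 0.0132 for Mrps18b and -0.0943 for Mrpl3. With 1 library left out the range was -0.238 to 0.0622 for Mrps18b and -0.0984 to 0.136 for Mrps18c, both signs turning without wildtype replicate 2, and -0.216 to 0.00385 for Mrpl36, turning without knockout replicate 4. Without the shallowest library of each label they were 0.101 for Mrpl36, 0.121 for Mrps18b and -0.120 for Mrps18c.

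The 77 genes took 0.0678% to 0.111% of reads, and 22 of 924 values rest on under 30 reads. How far depth limits the calls was not tested.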
